A study of Magallana hongkongensis with 2 samples.

Results

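Proteases cut other proteins, and animals hold them in check with dedicated inhibitors. Serpins and Kazal-type proteins block serine proteases, tissue inhibitors of metalloproteinases block matrix metalloproteinases, and alpha-2-macroglobulin traps proteases of several kinds. Complement C3 is a relative of alpha-2-macroglobulin that marks microbes for uptake, and in vertebrates plasminogen is the zymogen of plasmin, the serine protease that dissolves clots. Oysters lack antibodies and rely on such innate proteins, and the gill is a surface that seawater and its microbes pass all the time.

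The unigenes (assembled transcripts) described here were chosen by words in the deposited description: serpin, Kazal, metalloproteinase inhibitor, protease inhibitor, macroglobulin, CD109, complement C, complement factor, plasminogen or coagulation factor, without C1q. The rule found 36 of the 21226 unigenes listed in either file, under 16 different descriptions. No description held CD109 or complement factor. Of the 36, 28 took their name from the Pacific oyster, Crassostrea gigas, and 8 from another species.

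The study compared gill RNA of wild, adult, diploid Hong Kong oysters (Crassostrea hongkongensis), acclimated for 2 weeks and fed the algae Tetraselmis suecica and Isochrysis galbana. The control-labelled library came from oysters left at 23 °C. The heat-shock-labelled library came from oysters that spent 1 h at 37 °C before going back to 23 °C, with the gill of 10 oysters pooled; the labels give neither the number of oysters in the control library nor the time from the return to sampling. There is 1 library per group, so no test between conditions is possible and every interval below covers counting error only. The libraries held 3925349 and 4173215 uniquely mapped reads. Heat shock protein 90, a chaperone that heat induces in animals, had 54239 reads in the control-labelled library and 3478 in the heat-shock-labelled library, which goes against the labels, so each library is named by its label only.

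The name of the group was only partly borne out by the descriptions and annotation. Of the 36 unigenes, 7 carried one of the words inside the name of a different kind of protein. These were 3 unigenes of the mitochondrial Complement component 1 Q subcomponent-binding protein, 2 of Multiple coagulation factor deficiency protein 2, and 1 each of Alpha-2-macroglobulin receptor-associated protein and Plasminogen activator inhibitor 1 RNA-binding protein. The 7 held 46.6% of the reads of all members in the control-labelled library and 49.7% in the heat-shock-labelled library. A gene ontology function was deposited for 4 of the 36, and 0 of the 36 had one that named a peptidase or an inhibitor. The pathway "Complement and coagulation cascades" was attached to 3: both Complement C3 unigenes and 1 of the 16 unigenes described as Plasminogen (Unigene0024790). Plasminogen Unigene0004455 had the deposited function catalytic activity, which names no kind of enzyme. That the Plasminogen unigenes encode serine proteases therefore rests mainly on their best match.

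A call required 20 or more reads over both libraries, a difference of 2-fold or more, and an exact 95% interval that left out 1. Of the 36 members, 30 had at least 20 reads. Among these, 4 were called higher in the heat-shock-labelled library, 0 lower and 26 neither, so 13.3% were called, all higher. Over all 17364 tested unigenes 7.22% were called, 3.97% higher and 3.25% lower. The 4 were Serpin B8, 2 Plasminogen unigenes and 1 unigene of the mitochondrial 1 Q subcomponent-binding protein, each with few reads. They had between 32 and 106 reads over both libraries, and 18 of the other members had more reads than any of them. With TMM factors, which scale to the typical unigene in place of the library total, 1 of the 30 was called, the 1 Q subcomponent-binding protein, beside 2.34% of all tested unigenes called higher.

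The members as a list lay slightly above the typical unigene. Their median log2 ratio, heat shock label over control label, was 0.26, beside 0.17 over all tested unigenes. With TMM factors the same medians were 0.10 and 0.00. A ratio above 1 was found for 23 of 30 members (76.7%), beside 66.1% of all tested unigenes, and for 18 of 30 with TMM factors. The members together took 0.118% of the reads in the control-labelled library (exact interval 0.115 to 0.122%) and 0.144% in the heat-shock-labelled library (0.140 to 0.147%), a ratio of 1.22 (1.17 to 1.26). The abundant Plasminogen activator inhibitor 1 RNA-binding protein weighed on this sum, and without it the ratio was 1.13 (1.07 to 1.18). In pooled gill, more cells of a type and more RNA per cell cannot be told apart.

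**Figure D1:**
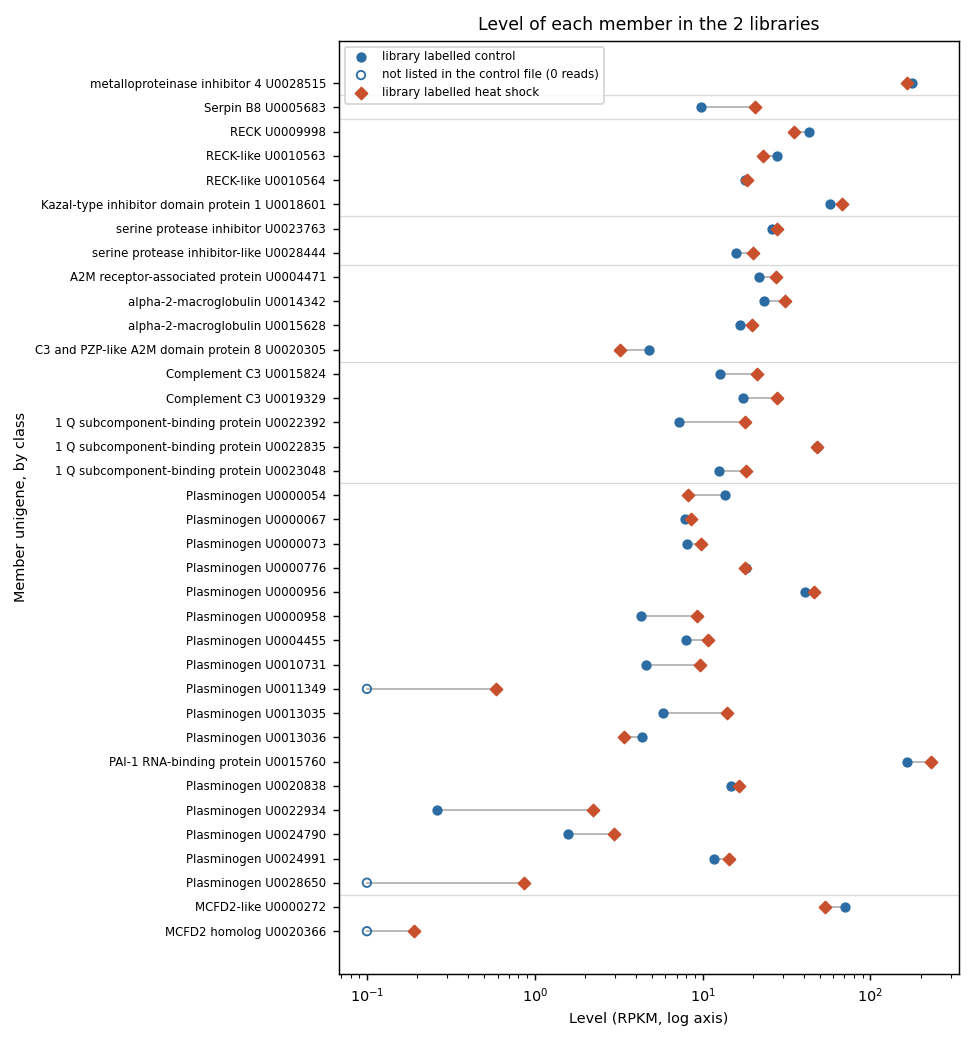
Level of each of the 36 members in RPKM (reads scaled to unigene length and library total, log axis), with circles for the control-labelled library, diamonds for the heat-shock-labelled library, and grey lines separating the classes. Open circles at the left edge mark the 3 members with no read in the control file. Metalloproteinase inhibitor 4 and the Plasminogen activator inhibitor 1 RNA-binding protein stand highest, and most pairs of symbols lie close together.

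Metalloproteinase inhibitor 4, which in mammals binds and blocks matrix metalloproteinases, was the most abundant inhibitor per length. Unigene0028515 (562 bases) had 390 reads in the control-labelled library and 387 in the heat-shock-labelled library. Its levels of 177 and 165 RPKM (reads scaled to length and library total) lay at percentiles 97.9 and 97.5 of the unigenes listed in each library. With library totals the ratio was 0.933, and its interval of 0.809 to 1.08 does not reach 2-fold. With TMM factors the ratio was 0.833 (0.722 to 0.961), wholly on the control side.

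The second inhibitor of metalloproteinases was the reversion-inducing cysteine-rich protein with Kazal motifs, known as RECK, which in mammals sits on the cell surface and restrains matrix metalloproteinases. Unigene0009998 had 214 reads against 186, 1.22-fold in favour of the control-labelled library, with an interval from 1.00 to 1.497 that only just excluded 1. Unigene0010563 had 121 and 106, and a ratio of 1.21 the same way (0.927 to 1.59), and the short Unigene0010564 (327 bases) had 23 and 25. Summed over the 3, the reads were 358 and 317, and the ratio of heat shock label to control label was 0.833 (0.714 to 0.9715). With TMM factors the ratio of heat shock label to control label was 0.73 (0.596 to 0.892) for Unigene0009998. For Unigene0010563 it was 0.735 (0.561 to 0.962), so both intervals lay below 1. None of the 3 was called, and they may be pieces of 1 gene. The reads of RECK were thus more numerous on the control side, whereas most members had ratios on the heat shock side.

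The Kazal-type serine protease inhibitor domain-containing protein 1, a secreted protein in mammals, was the fourth Kazal member. Unigene0018601 (1544 bases) had 346 and 439 reads, or 57.1 and 68.1 RPKM. It was 1.19-fold higher in the heat-shock-labelled library (1.03 to 1.38), which is close to the shift of the typical unigene. The 4 Kazal members together had 704 and 756 reads and a ratio of 1.01 (0.910 to 1.12).

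Serpin B8 was the only unigene with serpin in its description and the only inhibitor called among the members. In humans it belongs to the serpins that act inside cells. Unigene0005683 (468 bases) had 18 reads in the control-labelled library and 40 in the heat-shock-labelled library. Its ratio of 2.09 had an interval of 1.17 to 3.87, so the same counts allow a change well under or well over 2-fold. With TMM factors the ratio was 1.87, under the threshold. Leukocyte elastase inhibitor, another serpin by family although its name lacks the word, was looked up after the values were seen. Its 3 unigenes had 163 and 296 reads together, a ratio of 1.71 (1.41 to 2.08), and none was called. All 3 had ratios above 1.

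The 2 unigenes described only as serine protease inhibitor differed little between the libraries. Unigene0023763 (894 bases) had 91 reads against 103, and the ratio was 1.06 (0.795 to 1.43), or 0.95 with TMM factors. Unigene0028444, matched to the oyster Crassostrea ariakensis, had 35 against 47, with 1.26 as the ratio (0.798 to 2.02). The deposited function of this second unigene was hydrolase activity, that of an enzyme and not of an inhibitor, so its description and its annotation differ.

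**Figure D2:**
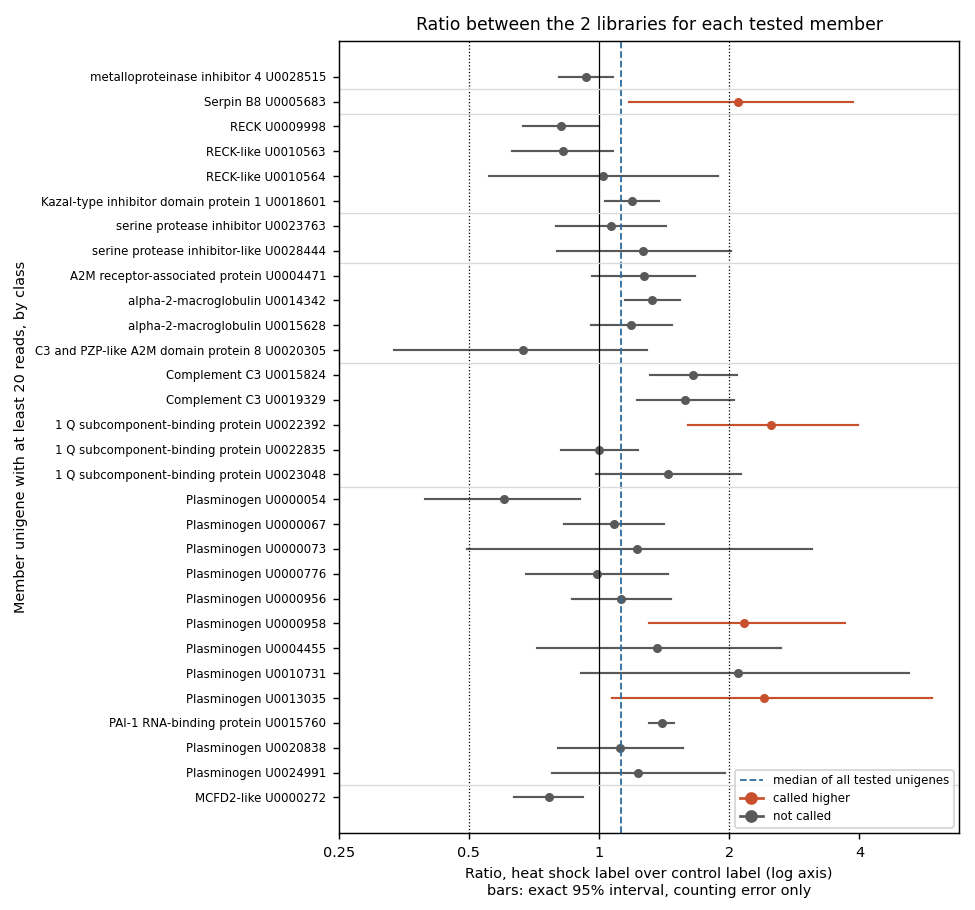
Ratio of heat shock label to control label (log axis) for the 30 members with at least 20 reads, with bars for the exact 95% interval from counting error, dotted lines at a ratio of 2 in each direction and a dashed line at the median of all 17364 tested unigenes. The 4 members called higher are in red; no member lies beyond the left dotted line.

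Alpha-2-macroglobulin, which folds around an attacking protease after being cut, was found in 2 unigenes of similar behaviour. Unigene0014342 (3508 bases), the longest unigene of the group, had 320 and 451 reads, or 23.2 and 30.8 RPKM, and was 1.33-fold higher in the heat-shock-labelled library (1.15 to 1.53). Unigene0015628 (2455 bases) had 160 and 202 reads and a ratio of 1.19 (0.960 to 1.47). Their summed reads gave 1.28 (1.14 to 1.44), below the 2-fold rule. With TMM factors the ratio was 1.18 (1.02 to 1.37) for Unigene0014342 and 1.06 (0.857 to 1.31) for Unigene0015628. Another relative, C3 and PZP-like alpha-2-macroglobulin domain-containing protein 8 (Unigene0020305), had 24 and 17 reads, and its interval in favour of the control-labelled library, 0.773 to 2.98, included 1. The Alpha-2-macroglobulin receptor-associated protein (Unigene0004471), a chaperone of the endoplasmic reticulum that escorts lipoprotein receptors, had 95 and 128 reads and a ratio of 1.27 (0.964 to 1.67).

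Complement C3 differed to a similar degree in both of its unigenes. Unigene0015824 (2356 bases) had 118 reads in the control-labelled library and 207 in the heat-shock-labelled library, or 12.8 and 21.0 RPKM. Unigene0019329 (1414 bases) had 97 and 163 reads, or 17.5 and 27.6 RPKM. Both were higher in the heat-shock-labelled library, by 1.65-fold (1.31 to 2.09) and 1.58-fold (1.22 to 2.05). Both missed the 2-fold rule and both intervals excluded 1, also with TMM factors, where the ratios were 1.47 and 1.41. Summed, they gave 215 and 370 reads and a ratio of 1.62 (1.37 to 1.92). The pair may be pieces of 1 gene, so they are not 2 independent measurements.

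The mitochondrial Complement component 1 Q subcomponent-binding protein is named for binding the recognition part of complement in vertebrates, but it works mainly in the mitochondrial matrix. Its 3 unigenes, close to each other in length, did not behave alike. Unigene0022392 (1026 bases) had 29 and 77 reads, or 7.20 and 18.0 RPKM, and was called higher in the heat-shock-labelled library at 2.50-fold (1.61 to 3.97). Unigene0022835 (982 bases) had 184 and 196 reads, 47.7 and 47.8 RPKM, and a ratio of 1.00 (0.815 to 1.23), so its interval did not reach that of the first. Unigene0023048 (957 bases) lay between them with 47 and 72 reads and a ratio of 1.44 (0.984 to 2.13). Summed over the 3, the reads were 260 and 345 and the ratio was 1.25 (1.06 to 1.47), under the 2-fold rule. Whether they are copies, alleles or pieces of 1 gene is not given in the files. The counts hold uniquely mapped reads only, and how alike the 3 sequences are was not tested.

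Plasminogen was the most numerous description, with 16 unigenes from 317 to 3480 bases long. In vertebrates its kringle domains bind fibrin and cell surfaces. Of the 16, 11 had at least 20 reads, 2 were called higher in the heat-shock-labelled library and 0 lower. The 2 are 18.2% of the 11, beside 3.97% called higher over all tested unigenes. The 11 had a median log2 ratio of 0.27, beside 0.17 over all tested unigenes. Ratios above 1 were found for 9 of the 11 (81.8%), beside 66.1% of all tested unigenes. The ratio stayed above 1 for 7 of the 11 with TMM factors, where the typical unigene had a log2 ratio of 0.00. Summed over all 16, the reads were 523 and 646, a ratio of 1.16 (1.03 to 1.31).

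The 2 called Plasminogen unigenes had 32 and 76 reads over both libraries, below the median of 172.5 of the tested members. Unigene0000958 (1365 bases) had 23 and 53 reads, or 4.29 and 9.30 RPKM, and was 2.17-fold higher in the heat-shock-labelled library (1.31 to 3.70). Unigene0013035 (393 bases) had 9 and 23 reads, and its ratio of 2.40 could lie anywhere from 1.07 to 5.90. Unigene0010731, with 9 and 20 reads, had a ratio of 2.09, just past 2, but its interval of 0.910 to 5.21 included 1 and it was not called. With TMM factors neither called unigene kept its call: the ratio of Unigene0000958 was 1.93, and that of Unigene0013035 was 2.15 with an interval that included 1.

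The Plasminogen unigenes with the most reads had ratios close to 1. Unigene0000956 (666 bases) was the highest of them per length, with 107 and 128 reads, or 40.9 and 46.1 RPKM, and a ratio of 1.13 (0.864 to 1.47). Unigene0000067 (3480 bases) had 108 and 124 reads, or 7.91 and 8.54 RPKM, and a ratio of 1.08 (0.828 to 1.41), which turned to 0.964 with TMM factors. Both ratios were below the 2-fold rule and both intervals included 1.

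Unigene0000054 (1203 bases) was the only Plasminogen unigene with an interval wholly on the control side. It had 64 reads in the control-labelled library and 41 in the heat-shock-labelled library, 1.66-fold higher in the former (1.10 to 2.52). With the longest Plasminogen unigene, Unigene0000067, it shared the deposited pathway "Axon guidance", a pathway other than clotting or complement. Their ratios lay on opposite sides of 1 with library totals, where the interval of Unigene0000067 included 1. With TMM factors both ratios of heat shock label to control label were below 1. They were 0.538 (0.354 to 0.808) for Unigene0000054 and 0.964 (0.7385 to 1.259) for Unigene0000067. The other 6 Plasminogen unigenes with at least 20 reads had ratios from 0.989 (Unigene0000776) to 2.09 (Unigene0010731), none called.

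The 5 Plasminogen unigenes below 20 reads held at most 15 reads each over both libraries. Unigene0022934 had 1 read in the control-labelled library and 9 in the heat-shock-labelled library, and its ratio of 8.47 had an interval of 1.17 to 371. Unigene0024790, the one tied to the complement and coagulation pathway, had 5 and 10 reads, and Unigene0013036 had 6 and 5. Unigene0011349 and Unigene0028650 each had 0 and 2 reads, within the 3 reads that a count of 0 allows, so no ratio is given.

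The remaining members carry a clotting word inside the name of a different kind of protein. Plasminogen activator inhibitor 1 RNA-binding protein, which in mammals binds messenger RNA and ribosomes, was the member with the most reads. Unigene0015760 (2389 bases) had 1547 and 2294 reads, or 165 and 230.1 RPKM, 33.3% and 38.2% of the reads of all members. It was 1.39-fold higher in the heat-shock-labelled library (1.31 to 1.49), the narrowest interval of the group and still under the 2-fold rule. With TMM factors its ratio was 1.245 (1.166 to 1.328). Multiple coagulation factor deficiency protein 2, which in mammals helps carry clotting factors out of the endoplasmic reticulum, went the other way. Its Unigene0000272 had 262 and 213 reads, 1.31-fold higher in the control-labelled library (1.09 to 1.57), and its homolog Unigene0020366 had 0 and 1 read. With TMM factors the ratio of Unigene0000272, heat shock label over control label, was 0.682 (0.567 to 0.821).

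**Figure D3:**
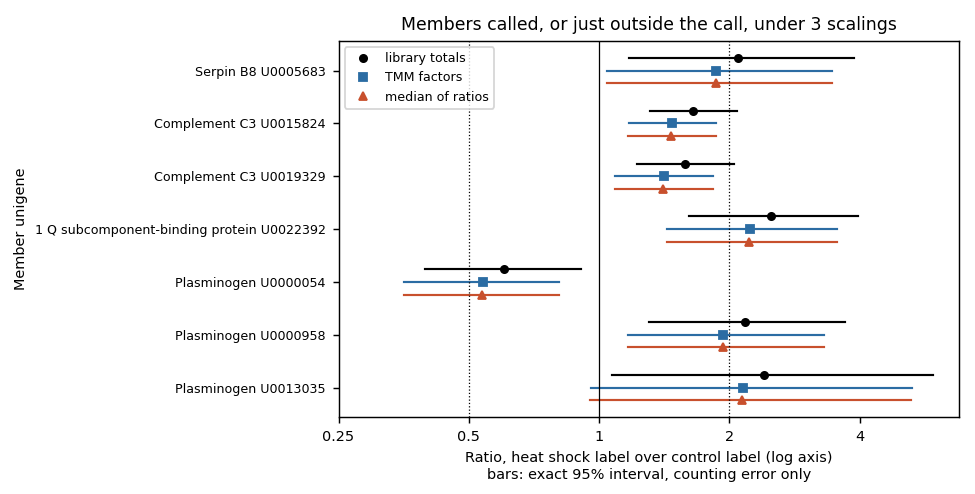
Ratio of heat shock label to control label (log axis) for the 4 called members and the 3 with an interval excluding 1 and a ratio between 1.5 and 2 in either direction, under library totals (circles), TMM factors (squares) and median-of-ratios size factors (triangles); bars are exact 95% intervals from counting error. Of the called members, only the 1 Q subcomponent-binding protein stays to the right of the dotted line at 2 with an interval that excludes 1 under all 3 scalings; the 2 Complement C3 unigenes stay between 1 and 2.

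Just inside the threshold lay Serpin B8 at 2.09 and Unigene0000958 at 2.17. Just outside lay the 2 Complement C3 unigenes at 1.65 and 1.58 and Unigene0000054 at 1.66 in the opposite direction. The gap between the 2 sets is smaller than the intervals of their members, which overlap in size.

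Inhibitors and proteases outside the rule were described from 6 further lists of words. The share called over all tested unigenes, 7.22%, is the background for their counts. Among 23 tested unigenes of inhibitors under other words, 3 were called higher and 0 lower in the heat-shock-labelled library, with a median log2 ratio of 0.46. They were cystatin-A5 (Unigene0028886, 63 and 141 reads), papilin (Unigene0002433, 33 and 71 reads) and Inter-alpha-trypsin inhibitor heavy chain H4 (Unigene0027804, 9 and 34 reads). Proteins of the cystatin family block cysteine proteases, and papilin is a matrix protein with inhibitor domains. The heavy chain was found by the words trypsin inhibitor in its name, and whether it inhibits a protease was not tested. The 3 ratios were 2.11, 2.02 and 3.55, and with TMM factors only the last was called. None of the 5 tested lectin-pathway and complement receptor unigenes was called. Their median was -0.09, below that of all tested unigenes, and 2 of the 5 had ratios above 1.

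Among the protease lists, only the metalloproteases had calls in both directions. Of 23 serine protease unigenes 1 was called higher, Plasma kallikrein, a clotting-cascade protease in vertebrates (Unigene0022940, 6 and 17 reads), and the median was 0.37. Its interval of 1.00 to 8.26 barely left out 1, and with TMM factors none of the 23 was called. Of 57 secreted and cell-surface metalloprotease unigenes 5 were called higher and 3 lower, with a median of 0.09. With TMM factors 2 were called higher and 3 lower, so the balance of calls depends on the scaling. Zinc metalloproteinase nas-25, an astacin-type protease named after a nematode gene (Unigene0014959), had 2397 and 1001 reads, 2.55-fold higher in the control-labelled library (2.36 to 2.74). Astacin itself (Unigene0015738) had 337 and 104 reads, 3.44-fold higher there (2.76 to 4.33). Zinc metalloproteinase nas-7 (Unigene0016161) went the opposite way with 362 and 1140 reads, a ratio of 2.96 in favour of the heat-shock-labelled library (2.63 to 3.34). Each of these 3 had more reads than any inhibitor called here. None of the 14 cathepsins and 9 proprotein convertases was called, with medians of 0.23 and -0.01.

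**Figure D4:**
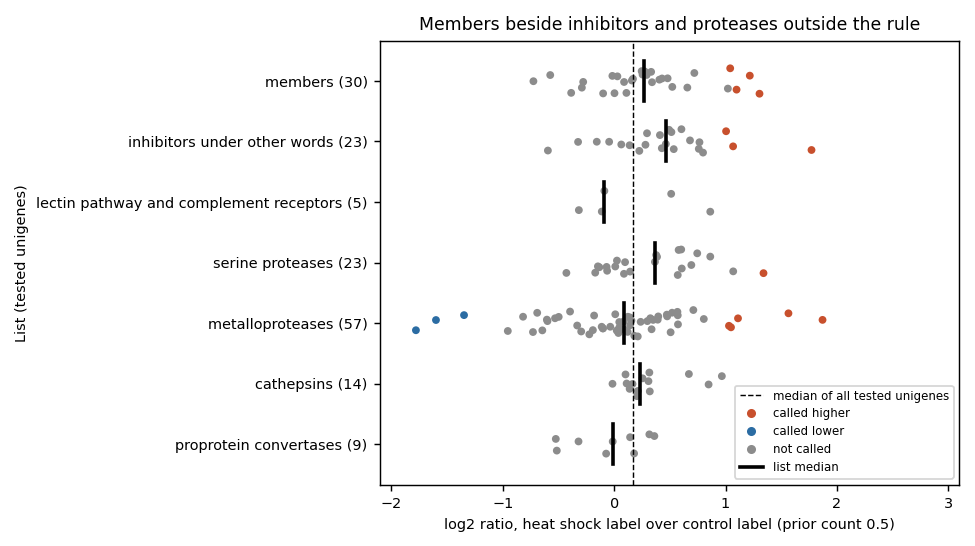
log2 ratio of heat shock label to control label (prior count 0.5) for the tested members and for the 6 further lists, 1 point per unigene, with black bars at each list's median and a dashed line at the median of all tested unigenes (0.17). Points called higher are red and points called lower are blue. The metalloproteases have calls on both sides. Calls are all higher among the members (4), the inhibitors under other words (3) and the serine proteases (1), and the other lists have none. Calls use library totals, and with TMM factors 1 of the members' 4 is left.

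Markers of what a gill dissection holds also differed between the libraries. Gill cilia unigenes took 1.12% of the reads in the control-labelled library and 1.35% in the heat-shock-labelled library, with a median log2 ratio of 0.31 over 87 tested unigenes. Haemocyte-associated unigenes took 0.726% and 0.916%, with a median of 0.13 over 32, and muscle unigenes 0.115% and 0.141%, with a median of 0.32 over 16. Gonad unigenes took 0.182% and 0.210% (median 0.12 over 13), and digestive gland unigenes 0.0174% and 0.0120% (median -0.34 over 5). Before 17 tubulin polyglutamylases were taken out of that last list, because their name contains amylase, it took 0.0677% and 0.0735% (median 0.19 over 22), so its direction rests on leaving them out. Calls were 1 higher and 1 lower for cilia (2.3% of those tested) and 2 higher and 0 lower for muscle (12.5%). For the haemocyte-associated list they were 0 higher and 2 lower (6.25%), beside 7.22% called over all tested unigenes. The haemocyte-associated median of 0.13 lay below the 0.17 of all tested unigenes. The summed share of the cilia, haemocyte-associated and muscle lists was higher in the heat-shock-labelled library, with ratios of 1.21, 1.26 and 1.22. For all members the ratio was 1.22. It was 1.13 without the member holding the most reads, and 1.145 without the 7 members that matched by a word of another protein. With TMM factors every log2 ratio shifts by -0.16, which takes the metalloprotease, haemocyte-associated and gonad medians below 0. The part of these tissues in the members' values was not tested.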

How the data were processed

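RNA of gill was sequenced from 2 libraries, 1 per group. The authors' deposited counts are uniquely mapped reads per unigene, whole numbers that sum to the total in each file's header. CASAVA 1.4 and cutadapt 1.8.1 were used, per the submitters' processing notes. For the aligner and the assembly, the sources used here give no name. The RPKM values the authors deposited equal count over length and library total to within a relative difference of 4.9e-15. Coverage in percent of the unigene length, per the file headers, was read but is not reported.

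Unigenes listed in 1 file were set to 0 in the other. Ratios were scaled by library totals, with exact conditional binomial (Clopper-Pearson) 95% intervals (scipy 1.17.1). PCR copies are not independent molecules, so intervals and the floor of 3 reads cover counting error only. No p-value was computed. The rule for calls was applied to all unigenes. It was also run on simulated counts that held counting error only, the error that the intervals assume. That run cannot show how the rule fares with variation between oysters or libraries. log2 ratios used a prior count of 0.5. Percentiles are ranks of the deposited RPKM within 1 library.

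Alternatives were TMM factors (edgeR 4.0.16), size factors (DESeq2 1.42.0), other minimums, ratios and intervals, a prior count of 5, and unigenes of one description summed. Values are given for members called, members with a ratio between 1.5 and 2 whose interval excluded 1, and the 3 with the most reads in each class; the remaining members are given so that all are accounted for. Members, lists and rules were chosen with earlier results of these data known. The words of the 5 marker lists and 6 further lists caught unrelated proteins, which were removed after the lists' members were seen. Among these were polyglutamylases among amylases, disintegrins and integrin-binding or integrin-linked proteins among integrins, and cathepsins through hepsin. The haemocyte-associated list shrank most in number, from 110 to 41 unigenes. Its calls went from 6 higher and 3 lower of 81 tested (11.1%) to 0 higher and 2 lower of 32 (6.25%).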

Additional observations from a re-analysis of the deposited data

How the results depend on the processing

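With 30 members tested and 1 library per group, most counts rest on few reads. The count of members called higher was 4 with library totals. It was 1 with TMM factors, with median-of-ratios size factors, with an interval at a stricter confidence level and with a minimum of 100 reads, and in these 4 settings it was the same unigene, Unigene0022392. It was 1 with unigenes of one description summed, where it was Serpin B8. It was 0 with a ratio of at least 4, 5 with no minimum and 6 with a ratio of at least 1.5, where 1 was called lower, Unigene0000054. Over all tested unigenes 7.22% were called either way with library totals, 6.7% with TMM factors and 6.72% with median-of-ratios size factors. The share was 4.19% with the stricter interval, 4.84% with a minimum of 100 reads and 5.1% with descriptions summed. It was 1.13% with a ratio of at least 4, 6.93% with no minimum and 16.4% with a ratio of at least 1.5. Members tested numbered 20 with a minimum of 100 reads, 15 with descriptions summed, 36 with no minimum and 30 otherwise. The ratio of summed reads, 1.22, was 1.08 with TMM factors and with median-of-ratios size factors, 1.13 without the member holding the most reads, and 1.145 without the 7 members that matched by a word of another protein, a choice added once the data had been seen. The median log2 ratio stayed between 0.10 and 0.31 in the alternatives run. The causes were not tested. No paired analysis was possible because each group has 1 library, and for the same reason no replicate could be left out.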
